A study of Mus musculus with 8 samples.

Results

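The genes described here take up, convert and regenerate arginine in the mouse lung. They are 10 of the 23469 genes with a read count in the lung RNA-Seq data, and were found by the Entrez identifiers of the mouse symbols Slc7a1, Slc7a2, Arg1, Arg2, Odc1, Nos1, Nos2, Nos3, Ass1 and Asl. Lungs of C57BL/6 mice were compared in 4 groups that crossed genotype with allergen exposure, namely PBS-treated wild type mice (WP), wild type mice given house dust mite extract (HDM; WH), PBS-treated DDAH1-transgenic mice (TP) and HDM-treated DDAH1-transgenic mice (TH). HDM was instilled into the trachea at 100 µg in 50 µl of PBS, PBS groups received the 50 µl alone, both 3 times per week for 3 weeks, and lungs were taken 24 hours after the last challenge. The study's methods place a measurement of airway responsiveness to methacholine before the collection of blood, lavage and lungs. The RNA of 4 mice per group was combined into a pool that was sequenced as 2 libraries, so that the spread and every p-value given here measure differences between libraries of 1 pool and not between mice. Neither the age of the mice nor the promoter of the DDAH1 transgene is given in the sources used here.

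Arginine enters cells through cationic amino acid transporters, of which Slc7a1 and Slc7a2 encode CAT1 and CAT2. Arginases hydrolyse it to ornithine and urea, ornithine decarboxylase (Odc1) opens the route from ornithine to polyamines, and NO synthases oxidise the same arginine to nitric oxide and citrulline, which argininosuccinate synthase (Ass1) and argininosuccinate lyase (Asl) turn back into arginine. In allergic lung, arginase 1 is known as a gene of IL-4 and IL-13 responses and of alternatively activated macrophages. DDAH1, the enzyme of the transgene, breaks down asymmetric dimethylarginine (ADMA), an inhibitor of the NO synthases.

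The libraries held between 5694928 and 11929374 counts, with the lowest total in replicate 1 of TH. The 45S pre-ribosomal RNA (Rn45S) made up 8.58% and 9.37% of the counts in TH and between 14.8% and 21.8% in the libraries of the other groups. Levels are given as CPM, the usual scaling of a count to the size of its library, after scaling of all 8 libraries by edgeR's TMM method, and 3 counts, taken as the floor, amounted to 0.232 to 0.449 CPM. Floors cover counting error only, and not any further spread from copies made by PCR, if these were counted as separate reads. The 5 lung markers (Sftpc, Sftpb, Scgb1a1, Foxj1, Ager) summed to between 18257 and 69229 CPM and were detected in every group. Among sex-linked genes, Xist ranged from 11.3 to 20.8 CPM after PBS and from 2048 to 3040.2 CPM after HDM, and the Y-linked gene Ddx3y between 58.7 and 69.0 CPM against at most 0.301 CPM. A difference between HDM and PBS therefore cannot be told apart from a difference between the sexes in any gene below. Ddah1 itself lay at 47.7 and 34.3 CPM in WP, 76.9 and 53.8 in TP, 43.1 and 44.7 in WH and 34.9 and 33.4 in TH. TP differed from WP by 0.66 on the log2 scale (standard error 0.26, adjusted p = 0.358), and TH from WH by -0.32 (standard error 0.29, adjusted p = 0.637). Tests were edgeR's quasi-likelihood fits, adjusted over all genes tested by Benjamini-Hochberg. The second value runs against the genotype labels, which are used as given, and whether transgene reads were counted under this gene is not known. The WP libraries stood apart in markers of other tissues, with summed thymocyte markers of 49.3 and 59.7 CPM against 11.5 to 17.8 in the other libraries and skeletal muscle markers of 42.1 and 45.5 CPM against 115 to 237.

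The arginases, and likewise Nos2 and Nos3, can be told apart with reads of 50 bases, as the coding sequences show where they are most alike. In GENCODE M21 transcripts (build GRCm38), the longest run that Arg1 and Arg2 share is 12 bases and that of Nos2 and Nos3 is 22 bases, with identities over the aligned coding sequences of 64.9% and 65.0%. These runs are shown in capitals with 20 bases on each side, 5′ to 3′ on the coding strand, from chr10:24916781-24916832 (minus strand) for Arg1, chr12:79150769-79150820 (plus) for Arg2, chr11:78937811-78937872 (plus) for Nos2 and chr5:24369809-24369870 (plus) for Nos3.
Arg1: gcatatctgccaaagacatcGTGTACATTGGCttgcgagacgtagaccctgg
Arg2: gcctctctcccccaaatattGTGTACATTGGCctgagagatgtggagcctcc
Nos2: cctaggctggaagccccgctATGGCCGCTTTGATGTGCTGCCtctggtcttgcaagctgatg
Nos3: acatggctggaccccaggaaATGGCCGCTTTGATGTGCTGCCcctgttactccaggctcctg

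Ass1 is the exception, because its counts cannot be separated from those of a pseudogene. Gm5424, a processed pseudogene of 1 exon on chromosome 10 (62071123 to 62072362), had the same count as Ass1 in all 8 libraries and differs from the Ass1 coding sequence at 6 of 1236 bases. The window of Ass1 at chr2:31488578-31488637 and its counterpart at chr10:62071543-62071602, both on the plus strand, hold 1 of these differences, T429C (position counted from the first base of the Ass1 start codon, Ass1 base first), in capitals.
Ass1: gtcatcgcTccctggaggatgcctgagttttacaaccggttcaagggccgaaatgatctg
Gm5424: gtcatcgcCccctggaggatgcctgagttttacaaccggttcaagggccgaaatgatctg
Values of Ass1 below are therefore values of Ass1 and Gm5424 together. For Odc1, 68.3% of the stretches of 50 coding bases also occur in transcripts of other genes, 15 in all, of which only Gm15645 was in the count table, with counts that differed from those of Odc1. The annotated spans of Nos3 and Atg9b overlap by 294 bases and those of Arg2 and Vti1b by 285 bases, and whether reads were counted by strand is not given in the sources used here.

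The RT-qPCR primers that the study lists for ARG1 and NOS2 matched the transcripts of these genes and no other member. They are shown because they mark the short stretch that the other assay of the study read, whereas the counts cover the coding region. By that assay, the study reported lower ARG1 after HDM in DDAH1-transgenic than in wild type mice. Its own RNA-Seq analysis also listed Arg1 among the genes lower in that comparison. For NOS2 the study reported no significant difference between the genotypes by RT-qPCR. The ARG1 pair spans bases 122 to 306 of a transcript of 1477 bases, and the NOS2 pair bases 358 to 484 of 4192. Each primer is given 5′ to 3′ in capitals over its whole length.
ARG1 forward: CTCCAAGCCAAAGTCCTTAGAG
ARG1 reverse: AGGAGCTGTCATTAGGGACATC
NOS2 forward: GTTCTCAGCCCAACAATACAAGA
NOS2 reverse: GTGGACGGGTCGATGTCAC

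Of the 10 genes, 4 matched the RefSeq promoter sequences (GRCm38.p6, 250 bases before to 50 after the start) by symbol. Those of Ass1 (chr2:31470020-31470319, plus strand) and Odc1 (chr12:17544623-17544922, plus strand) are shown because the RNA of both genes was higher in TH than in TP. Both strands were searched for TATAAA, for STAT6-like letters (TTC and GAA with 4 bases between) and for NF-kB-like letters (GGG and CC with 5 between), which 13.6%, 6.94% and 50.8% of 32817 promoters hold. The matches, all to the last of these, are in capitals and partly overlap, 6 in Ass1 and 1 in Odc1, in windows of 74% and 78% G and C.
Ass1 promoter: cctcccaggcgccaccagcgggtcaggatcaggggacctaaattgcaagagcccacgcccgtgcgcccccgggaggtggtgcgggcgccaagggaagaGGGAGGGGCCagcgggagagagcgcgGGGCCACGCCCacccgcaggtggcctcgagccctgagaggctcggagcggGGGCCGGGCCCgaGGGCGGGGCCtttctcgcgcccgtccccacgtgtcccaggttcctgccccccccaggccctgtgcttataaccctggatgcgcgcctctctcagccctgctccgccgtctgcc
Odc1 promoter: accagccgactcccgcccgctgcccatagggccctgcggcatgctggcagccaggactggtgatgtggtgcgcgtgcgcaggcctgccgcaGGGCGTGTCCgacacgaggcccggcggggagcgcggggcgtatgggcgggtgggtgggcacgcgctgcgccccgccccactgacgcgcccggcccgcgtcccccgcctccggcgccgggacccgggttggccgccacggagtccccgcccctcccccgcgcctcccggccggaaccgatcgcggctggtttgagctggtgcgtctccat

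Across the 4 groups, arginase 1 and the inducible NO synthase moved most. Arg1 was 24.6-fold higher in WH than in WP and 7.82-fold higher in TH than in TP, and 5.43-fold lower in TH than in WH. Nos2 was 13.7-fold lower in TP than in WP, a value from 2 libraries of 1 pool per group, with 5 and 11 counts in TP. The study's RT-qPCR, given with a larger n per group, found no significant NOS2 difference between the genotypes. The 2 assays differ in unit and number, so that their results are not like for like. Slc7a2 rose in both HDM-treated groups, and Arg2, Ass1 and Odc1 passed the test between TH and TP. Of the 10 genes, 9 had enough counts to be tested in each comparison and Nos1 did not.

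Set against all genes, the count of called members (adjusted p under 0.05) was 1 of 9 between TP and WP, where 0.657% of the 14926 genes tested were called, and 1 of 9 between TH and WH, where 2.44% of 15191 were. Both were lower in the DDAH1-transgenic group, as were 0.375% and 0.599% of all genes. Between WH and WP 2 of 9 were called, with 6.74% of 15123 genes, and between TH and TP 5 of 9, with 13.8% of 15086 genes. All 7 calls were higher after HDM, as were 4.44% of all genes in wild type and 8.43% in DDAH1-transgenic mice, with 5.35% lower in the latter and 2.3% in the former. All 9 log2 fold changes between TP and WP were negative, with a median of -0.80, and 7 of 9 between TH and WH, with a median of -0.32. Without WP replicate 2, Slc7a1 and Asl turned positive in the former, at 0.025 and 0.42, as did Slc7a1 without TP replicate 2, at 0.096, and Arg2 turned negative in the latter with an offset for gene length, at -0.091. Between HDM and PBS 8 of 9 were positive in each genotype, with medians of 0.67 in wild type and 1.50 in DDAH1-transgenic mice. The median of all genes tested was between 0.00 and 0.03 in these comparisons. The libraries of both groups lay apart for 6 of the 9 genes between TP and WP (40.3% of all genes tested), 7 between TH and WH (48.2%), 4 between WH and WP (49.8%) and 7 between TH and TP (56.8%). In the genotype comparisons the members that lay apart were all lower, against 20.4% of all genes between TP and WP and 25% between TH and WH. In those of HDM with PBS they were all higher, against 25% of all genes between WH and WP (24.7% were lower) and 28.8% between TH and TP (28% were lower). The comparisons share groups, so that their values are given side by side and are not independent of each other.

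**Figure D1:**
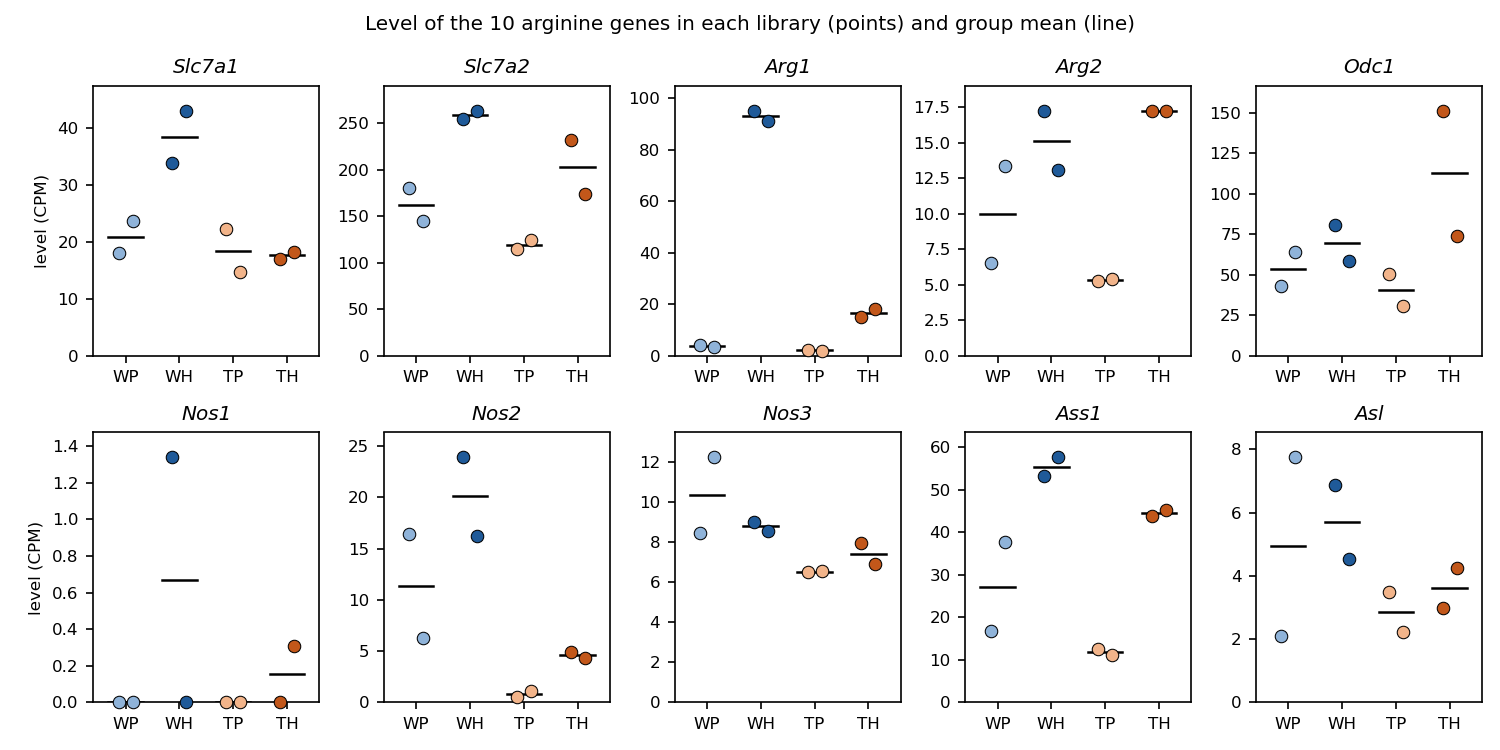
Level of each of the 10 genes in CPM (linear axes from 0, a separate scale per gene); points are the 2 libraries of a group and lines the group means. Both Arg1 points of WH, at 95.2 and 91.2 CPM, lie above those of the other groups, of which the highest is 18.3 CPM, while both Nos2 points of TP lie below those of every other group.

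Compared per kilobase of transcript, the transporter Slc7a2, Odc1 and Ass1 were the 3 genes with the highest mean levels in WP, at 20.6, 24.2 and 16.0 CPM per kb. The libraries of Odc1 overlapped those of Slc7a2, and those of Slc7a2 overlapped those of Ass1, which lay above Arg2. In WH, Arg1 was the highest, at 63.1 CPM per kb, above the ranges of Slc7a2 (32.8), Ass1 (32.7) and Odc1 (31.4), which overlapped. In TP, Arg1 was the seventh at 1.46 CPM per kb, with only Asl (1.18), Nos2 (0.198) and Nos1 (no count) lower, and its range overlapped that of Asl. In TH, Odc1 (51.0) came first, Ass1 (26.2) and Slc7a2 (25.6) overlapped, and Arg2 (12.1) and Arg1 (11.3) overlapped below them. With the coding length in place of the transcript length, Slc7a2 had the highest mean in all 4 groups, at 131 CPM per kb in WH against 96.2 for Arg1, but its libraries overlapped those of Odc1 in TH. The counts were taken over coding regions, and Slc7a2 has 1971 coding bases in a transcript of 7910.

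Slc7a2 (chromosome 8, 40862341 to 40922070), the gene of CAT2, lay at 180.0 and 145 CPM in WP, 255 and 264 in WH, 115 and 124 in TP, and 231 and 173 in TH. Both HDM-treated groups were above the PBS-treated group of the same genotype without overlap, and TP was below WP. The log2 fold change was 0.67 (standard error 0.15, adjusted p = 0.0153) between WH and WP and 0.78 (standard error 0.22, adjusted p = 0.0349) between TH and TP, by edgeR (quasi-likelihood, Benjamini-Hochberg). Between the genotypes it was -0.45 (adjusted p = 0.309) after PBS and -0.32 (adjusted p = 0.483) after HDM by the same test. The rise in wild type mice was no longer past the threshold without WP replicate 2 (log2 fold change 0.51), and the rise in DDAH1-transgenic mice without either TP library (0.72 and 0.83), without TH replicate 1 (0.54) or with an offset for GC content (0.62).

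Slc7a1 (chromosome 5, 148327410 to 148399904), the gene of the widely expressed transporter CAT1, lay at 34.0 and 43.1 CPM in WH and between 14.7 and 23.7 CPM in the other 6 libraries. Its 2 WH libraries were thus the highest of all. None of its comparisons passed the test, at 0.88 on the log2 scale (standard error 0.30, adjusted p = 0.105) between WH and WP and -1.08 (standard error 0.34, adjusted p = 0.134) between TH and WH (edgeR, Benjamini-Hochberg). The former was past the threshold without WH replicate 1, at 1.05.

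Arg1 (chromosome 10, 24915207 to 24927470, minus strand, 8 exons) encodes the cytosolic arginase of liver and of alternatively activated macrophages. It had 43 and 40 counts in WP, 1065 and 908 in WH, 23 and 19 in TP and 100 and 237 in TH, which is 4.32 and 3.27 CPM, 95.2 and 91.2 CPM, 2.30 and 2.01 CPM, and 15.0 and 18.3 CPM. The 4 groups did not overlap, with TP lowest, then WP, TH and WH. On the log2 scale, HDM against PBS gave 4.62 (standard error 0.29, adjusted p = 1.80e-07) in wild type mice and 2.97 (standard error 0.57, adjusted p = 0.00540) in DDAH1-transgenic mice. TH against WH gave -2.44 (standard error 0.28, adjusted p = 0.00151), and TP and WP differed by -0.82 (standard error 0.80, adjusted p = 0.796), all by edgeR (quasi-likelihood, Benjamini-Hochberg).

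The difference between the genotype effects of Arg1 under HDM and under PBS was -1.67 on the log2 scale (standard error 0.49). It had an unadjusted p of 0.00324 and an adjusted p of 0.0987 in edgeR's test over all 8 libraries, which did not pass. DESeq2 called it, at -1.67 with an adjusted p of 0.0344, and so did edgeR with an offset for gene length, at -2.04 (adjusted p = 0.0460), and over all alternatives the adjusted p ran from 0.0344 to 0.333. The call between TH and WH was lost without either WH library, at -2.43 without replicate 1 and -2.47 without replicate 2, and the call between TH and TP without either TP library, at 3.06 and 2.87. The call between WH and WP held in all 13 alternatives.

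Markers of alternatively activated macrophages (Chil3, Chil4, Retnla, Mrc1, Cd163) were also higher in sum after HDM, and lower in TH than in WH. In TP their sum was higher than in WP and Arg1 was lower. Neither Arg1 (log2 fold change -0.82, adjusted p = 0.796 in edgeR's test) nor any of the 5 markers was called between TP and WP. The summed level of these markers lay between 512 and 517 CPM in WP, 12297 and 13128 in WH, 687 and 707 in TP and 5153 and 6645 in TH, with none of the 5 at 0 in a group. Chil3 made up most of each sum, 4 of the 5 were called higher between HDM and PBS in each genotype, and 2, Chil3 and Chil4, were called lower between TH and WH. The 7 general macrophage markers summed to between 289 and 291 CPM in WP, 715 and 804 in WH, 270.0 and 304 in TP and 621 and 638 in TH. Within this sum, Marco was lower in both HDM-treated groups than after PBS in the same genotype, and Mertk was lower in TH than in TP. Adgre1 overlapped between WH and WP and went against the sum between TH and WH. It lay at 21.9 and 28.5 CPM in WH and at 51.1 and 51.0 CPM in TH. Cd68, Itgax and Mertk were lower in TH than in WH, and Mrc1, Csf1r and Marco overlapped. The part of the cells of both marker lists in the Arg1 result was not tested. In whole lung more cells of a type and more RNA per cell cannot be told apart. Hepatocyte markers, of the tissue best known for Arg1, summed to at most 31.3 CPM, with Ttr and Cps1 at 0 in all 4 groups.

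Arg2 (chromosome 12, 79130788 to 79156301), the mitochondrial arginase, lay at 6.53 and 13.4 CPM in WP, 17.2 and 13.1 in WH, 5.29 and 5.39 in TP and 17.2 and 17.3 in TH. WP and WH overlapped, and TH and TP did not. It rose in TH against TP by 1.71 on the log2 scale (standard error 0.50, adjusted p = 0.0398), and its other comparisons, 0.60 between WH and WP, -0.91 between TP and WP and 0.22 between TH and WH, had adjusted p-values of 0.530, 0.640 and 0.845 (edgeR, Benjamini-Hochberg). The call was lost without any one of the 4 libraries, with values between 1.69 and 1.72, and with an offset for gene length (1.17) or for GC content (1.57). The interaction of Arg2 was 1.09 (standard error 0.67, adjusted p = 0.486, edgeR).

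Odc1 (chromosome 12, 17544808 to 17551502), the rate-limiting enzyme of polyamine synthesis, lay at 43.3 and 63.7 CPM in WP, 80.4 and 58.2 in WH, 50.2 and 31.0 in TP and 151 and 73.8 in TH. The TH libraries were apart from those of TP but differed 2.05-fold from each other. The log2 fold change between TH and TP was 1.50 (standard error 0.36, adjusted p = 0.0171, edgeR with Benjamini-Hochberg adjustment). It was 0.86 without TH replicate 1, 1.88 without TP replicate 1 and 1.19 without TP replicate 2, and the call was lost in each, as it was at 1.25 with an offset for gene length. Between TH and WH the value was 0.74 (adjusted p = 0.289), which passed at 1.17 without TH replicate 2 (adjusted p = 0.000197; range over alternatives 0.000197 to 0.942) and was 0.11 without TH replicate 1. The interaction was 1.09 (standard error 0.46, unadjusted p = 0.0274, adjusted p = 0.269 in edgeR's test) and passed at 1.52 without TH replicate 2, against 0.49 without TH replicate 1.

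**Figure D2:**
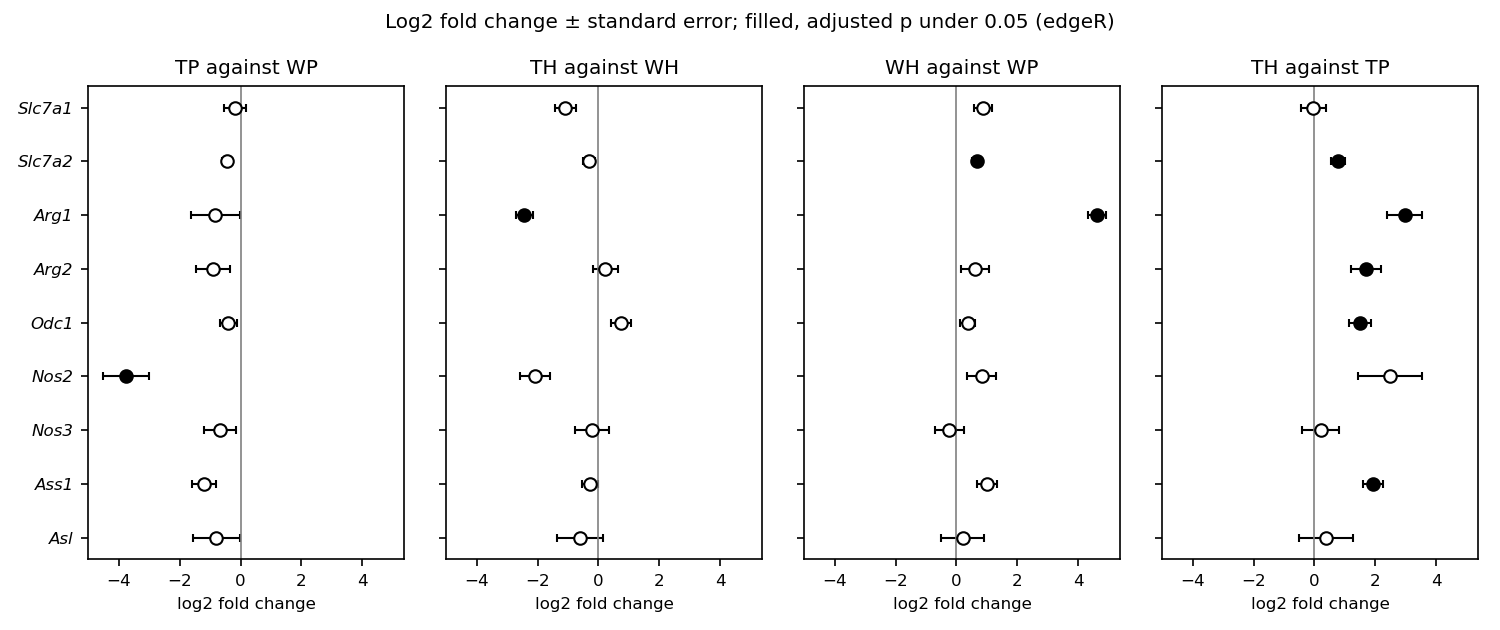
Log2 fold change with its standard error of the 9 tested genes in each comparison, with filled points for an adjusted p under 0.05 in edgeR's test and a vertical line at 0. Arg1 is far above 0 in both comparisons of HDM with PBS and below 0 between TH and WH, and Nos2 is the filled point between TP and WP, at -3.78.

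Nos2 (chromosome 11, 78920787 to 78960226, plus strand, 27 exons) encodes the inducible NO synthase of macrophages and epithelium. It had 164 and 77 counts in WP, 268 and 162 in WH, 5 and 11 in TP and 33 and 56 in TH. On the common scale this is 16.5 and 6.29 CPM, 23.9 and 16.3 CPM, 0.499 and 1.16 CPM, and 4.94 and 4.34 CPM. Both DDAH1-transgenic groups lay below both wild type groups, and TP was closest to the floor. WP and WH overlapped.

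On the log2 scale, TP against WP gave -3.78 (standard error 0.75, adjusted p = 0.0223), and TH against WH -2.08 (standard error 0.50, adjusted p = 0.0544), by edgeR (quasi-likelihood, Benjamini-Hochberg). The value after HDM missed the threshold but passed it in 7 of 13 alternatives, among them DESeq2 (-2.10, adjusted p = 0.00547; range over alternatives 0.00547 to 0.416). The interaction was 1.64 (standard error 0.86, adjusted p = 0.394, edgeR), so that the 2 genotype effects were not shown to differ. HDM against PBS gave 0.83 (adjusted p = 0.360) in wild type mice and 2.49 (standard error 1.04, adjusted p = 0.140) in DDAH1-transgenic mice by the same test, and the latter was past the threshold, at 2.47, when all 8 libraries were fitted together. Without WP replicate 1, the library with 164 counts, the value between TP and WP was -2.91 and not past the threshold, and it was -4.47 and past it without TP replicate 2.

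Neutrophil markers were also lower in TP than in WP. The 6 markers measured (S100a8, S100a9, Csf3r, Cxcr2, Mmp8, Retnlg) summed to between 423 and 441 CPM in WP and 184 and 209 in TP, against 210.3 to 216 in WH and 226 to 236 in TH. No marker of this list was at 0 in a group. The summed macrophage markers of WP lay within the range of TP, but single markers differed in both directions. Adgre1, Marco and Csf1r were lower in both TP libraries than in WP, Mrc1 and Mertk were higher, and Cd68 and Itgax overlapped. Summed adipocyte markers were 65.1 and 78.2 CPM in WP against 23.2 and 31.2 in TP, and heart muscle markers 256 and 303 against 130.2 and 153. The part of these tissues and cells in the Nos2 difference was not tested.

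Nos3 (chromosome 5, 24364816 to 24384474), the endothelial NO synthase, lay at 8.44 and 12.2 CPM in WP, 9.02 and 8.54 in WH, 6.49 and 6.55 in TP and 7.94 and 6.89 in TH. It differed least among the groups, with log2 fold changes between -0.68 and 0.21 and adjusted p-values of 0.725 or more in the 4 comparisons (edgeR, Benjamini-Hochberg). The 6 endothelial markers summed to between 1822 and 1843 CPM in WP, 1320.1 and 1356 in WH, 2190.3 and 2210 in TP and 874 and 1102 in TH. As Nos3 passed the test in no comparison, no order of its groups is set beside that of the sum. Nos1 (chromosome 5, 117866839 to 117958840), the neuronal NO synthase, had 15 counts in 1 library of WH, 4 counts in 1 library of TH and 0 in the other 6. A count of 0 allows a level of up to 0.245 to 0.449 CPM in these 6 libraries, so that Nos1 was not detectable at this depth in WP or TP, and no fold change is given. The 5 neuronal markers summed to between 5.57 and 13.1 CPM.

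Ass1 (chromosome 2, 31470270 to 31520670), which joins citrulline to aspartate, lay together with Gm5424 at 16.8 and 37.6 CPM in WP, 53.2 and 57.6 in WH, 12.6 and 11.2 in TP and 43.9 and 45.1 in TH. Both HDM-treated groups were above both PBS-treated groups. The log2 fold change between TH and TP was 1.93 (standard error 0.34, adjusted p = 0.00329) and that between WH and WP 1.02 (standard error 0.33, adjusted p = 0.0867), by edgeR (quasi-likelihood, Benjamini-Hochberg). The former was not past the threshold without either TP library (2.00 and 1.84), and the latter was past it in 6 of 13 alternatives, among them DESeq2 (1.02) and the fit without WP replicate 2 (1.71). The interaction was 0.88 (adjusted p = 0.423, edgeR). The WP libraries differed 2.24-fold from each other in Ass1 and 3.68-fold in Asl.

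Asl (chromosome 5, 130011258 to 130024381), the next enzyme of the same route, had between 20 and 95 counts per library, or 2.11 to 7.75 CPM, and both ends of the CPM range were libraries of WP. Its log2 fold changes lay between -0.80 and 0.37, with adjusted p-values of 0.752 or more in the 4 comparisons (edgeR, Benjamini-Hochberg). Their standard errors ran from 0.71 to 0.89, and only the value between TP and WP was larger in size than its own standard error. The WP libraries had 21 and 95 counts, and leaving out either moved the value between WH and WP to -0.44 or 1.42.

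None of the 9 genes passed edgeR's test of the difference between the genotype effects after HDM and after PBS, where 1.76% of 15868 genes were called. Arg1 and Odc1 had an unadjusted p under 0.05, DESeq2 called 1 gene, Arg1, and 7 of the 9 values were positive, with Slc7a1 (-0.95) and Arg1 (-1.67) as the exceptions. Over all genes, 10.2% had an unadjusted p at or below that of Odc1 (0.0274) in edgeR's test, and DESeq2 called 654 of 15868.

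The other genes of the pathway were taken from 4 lists. Their counts are to be read against the shares of all genes called in the same comparison, 1.84% higher and 0.599% lower between TH and WH, 4.44% and 2.3% between WH and WP, and 8.43% and 5.35% between TH and TP. DESeq2 called 223 of 14926 genes between TP and WP, 842 of 15191 between TH and WH and 1393 of 15123 between WH and WP. In edgeR's test, 15.1% of all genes between TH and WH had an unadjusted p of at most 0.0435. Between TP and WP 4.09% had one of at most 0.0127, and between WH and WP 10.5% one of at most 0.0110. Of 18 genes of ornithine, polyamine and proline synthesis, none was called between TP and WP or between WH and WP, where 1 and 2 had an unadjusted p under 0.05 and DESeq2 called none. Between TH and WH 2 rose, namely Oat, which links ornithine to proline synthesis (log2 fold change 1.32, adjusted p = 0.0127), and Sat1, which acetylates polyamines (1.93, adjusted p = 0.0131). Between TH and TP 3 of the 18 rose, a share to be set beside the 8.43% of all genes, namely Sat1 (2.38, adjusted p = 0.00111), Azin1, which keeps ornithine decarboxylase from breakdown (0.86, adjusted p = 0.0347), and Oat (1.00, adjusted p = 0.0399), all by edgeR with Benjamini-Hochberg adjustment. Mean Sat1 levels were 72.5 CPM in WP, 84.0 in WH, 61.1 in TP and 311 in TH, the last with an SD of 183 (n = 2). Without TH replicate 1 its log2 fold change was 1.14 between TH and WH and 1.58 between TH and TP, both still past the threshold. The median of the list was 0.40 between TH and WH, 0.74 between TH and TP, -0.089 between TP and WP and 0.025 between WH and WP. The calls between TH and WH were lost without either WH library, and that of Sat1 also with a length offset (1.57). The 3 between TH and TP were lost without either TP library, those of Oat and Azin1 also without TH replicate 1 (0.78 and 0.61) or with an offset for GC content (0.87 and 0.73), and that of Oat with a length offset (0.73).

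Among 10 genes of the NO receptor and of S-nitrosothiol breakdown, 4 fell and none rose between WH and WP, and 6 fell and 1 rose between TH and TP. Gucy1a2, a subunit of the soluble guanylate cyclase, fell by 0.98 and 1.22 on the log2 scale (adjusted p = 0.00265 and 0.00452), Prkg1, the cGMP-dependent kinase, by 0.93 and 1.39 (adjusted p = 0.0377 and 0.0101), and the phosphodiesterase gene Pde3a by 0.74 and 2.00 (adjusted p = 0.0412 and 0.000564), by edgeR with Benjamini-Hochberg adjustment. Pde5a, whose enzyme degrades cGMP, was called in both (-0.65 and -0.92), the cyclase subunit Gucy1a1 (-1.04) between TH and TP, and Vasp, a substrate of that kinase, rose there by 1.41. The medians were -0.54 and -0.98, against 0.02 and 0.03 over all genes. Between the genotypes none of the 10 was called by edgeR, with 0 of them after PBS and 3 after HDM at an unadjusted p under 0.05 and 0 and 2 called by DESeq2. The sum of the endothelial markers, given above with Nos3, was also lower in both HDM-treated groups. Of the 6 markers, 2 were called lower between WH and WP and 5 between TH and TP, against 2.3% and 5.35% of all genes. Cldn5 overlapped in both comparisons, and Tie1 between WH and WP. The part of endothelium in these values was not tested. Without either TP library, each call between TH and TP named here was lost except that of Pde3a. That of Pde5a was lost also with a length offset (-0.63), and that of Vasp with an offset for length (1.15) or GC content (1.29) or without TH replicate 1 (1.12). Between WH and WP, the calls of Prkg1 and Pde3a were lost without either WP library, with a length offset (-0.87 and -0.65) and with all 8 libraries fitted together (-0.93 and -0.74), that of Prkg1 also without WH replicate 2 (-0.86), and that of Pde5a without WP replicate 1 (-0.58).

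Of 14 genes of arginine supply and the urea cycle, 8 or 9 were tested. Gatm, which uses arginine for creatine synthesis, rose by 3.18 (adjusted p = 2.23e-05) in WH against WP and by 2.49 (adjusted p = 0.00320) in TH against TP, from means of 8.95 and 6.86 CPM to 80.7 and 38.1 CPM, by edgeR with Benjamini-Hochberg adjustment. Slc3a2, the heavy chain shared by several amino acid transporters, fell by 0.75 between TH and TP (adjusted p = 0.0285), a call lost without either TP library, as that of Gatm there was without TP replicate 2 (2.05). None was called between the genotypes by edgeR, with 0 after PBS and 2 after HDM at an unadjusted p under 0.05 and 0 and 1 called by DESeq2. The liver enzyme gene Cps1 had no count in any library.

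Of 17 genes of tetrahydrobiopterin synthesis and NO synthase partners, 16 were tested. Cav1, whose protein binds the endothelial NO synthase, fell by 0.66 (adjusted p = 0.00194) in WH against WP and by 1.15 (adjusted p = 0.00103) in TH against TP, where Nostrin, a trafficking partner of the same enzyme, fell by 1.25 (adjusted p = 0.0178). Qdpr, which regenerates tetrahydrobiopterin, rose by 2.53 (adjusted p = 0.00846) and the dynein light chain gene Dynll1, a partner of the neuronal enzyme, by 1.03 (adjusted p = 0.0170) in TH against WH, by edgeR with Benjamini-Hochberg adjustment. Dynll1 also rose by 1.02 between TH and TP. Between TP and WP none of the 16 was called, 6 had an unadjusted p under 0.05 and DESeq2 called none. The calls of Qdpr and Dynll1 between TH and WH were lost without either WH library, that of Dynll1 also with a length offset (0.89), and the 3 between TH and TP without either TP library.

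**Figure D3:**
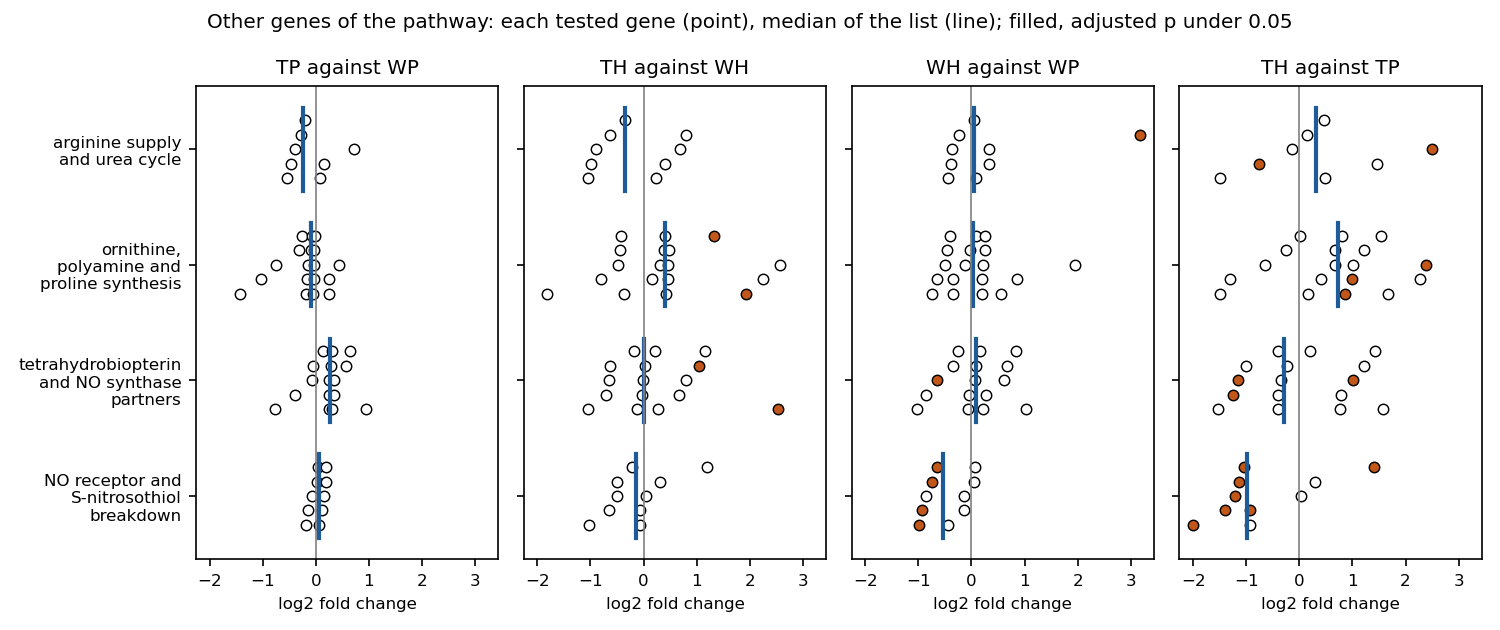
Log2 fold change of each tested gene of the 4 pathway lists (points, spread vertically for legibility; filled, adjusted p under 0.05 in edgeR's test) with the median of each list as a line. In both comparisons of HDM with PBS the median of the NO receptor list lies below 0, at -0.54 and -0.98, and in the left panel, between TP and WP, no point is filled.

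The genes whose pattern over the 8 libraries was most like that of Arg1 were ranked by the root mean square difference of log2 CPM after each gene's mean was subtracted, over 15868 genes. They were Slc26a4 (0.49), Chil4 (0.50), Mmp13 (0.54), Fcgbp (0.55) and Col6a5 (0.60), against a median of 2.13 for all genes. Chil4 is also among the macrophage markers above. Mean levels of Slc26a4, an anion exchanger of airway epithelium, were 6.39 CPM in WP, 189.6 in WH, 3.32 in TP and 52.3 in TH. For Nos2 they included Dsc2 (0.56), Tnfrsf9 (0.65), Rgs16 (0.73) and Ror2 (0.75), against a median of 1.76. Dsc2, a desmosomal cadherin, lay at means of 5.64 CPM in WP, 6.21 in WH, 0.408 in TP and 2.86 in TH, and these 4 genes had mean levels below 10 CPM in every group.

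**Figure D4:**
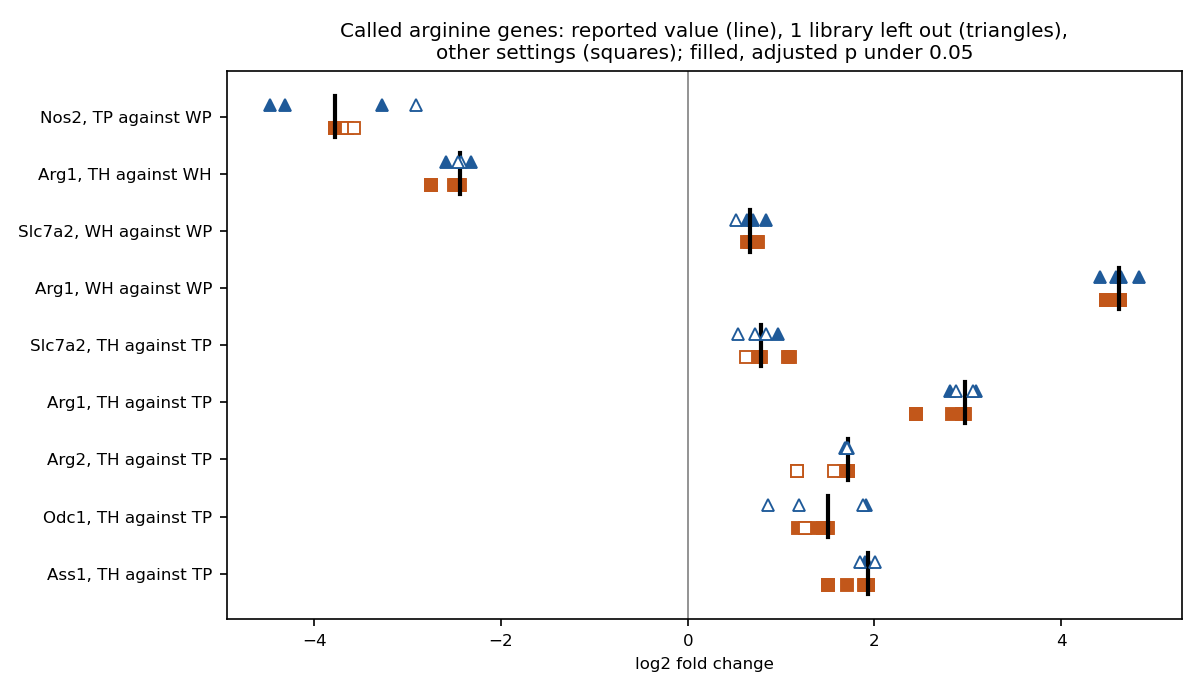
Log2 fold change of each called arginine gene as reported (line), with each library left out in turn (triangles, upper) and under the other settings (squares, lower); filled symbols have an adjusted p under 0.05, and overlapping symbols hide each other in part. No value crosses 0, the 4 Arg1 triangles between WH and WP are filled, and those of Arg2 between TH and TP are open.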

How the data were processed

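Lung RNA of 4 mice per group was pooled, amplified and sequenced as 2 libraries with single reads of 50 cycles. The authors aligned reads with TopHat to the mouse genome and deposited raw read counts summed over the coding regions of each gene, the unit used here. Submitters' processing notes also name CASAVA 1.8, bcl2fastq and DESeq. Of 23469 gene identifiers, 23372 received a symbol from RefSeq and 21145 a transcript length.

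Each comparison was fitted on its own 4 libraries, and the difference of genotype effects on all 8, with edgeR 4.0.16 (R 4.3.3), TMM scaling, a low-count filter (filterByExpr, minimum 10 counts), the quasi-likelihood test and Benjamini-Hochberg adjustment over all genes tested, with a threshold of 0.05. The standard error is the log2 fold change divided by the square root of F. DESeq2 1.42.0, another scaling, no filter, a replicate block, offsets for gene length and GC content (the latter chosen after seeing the data) and leaving out each library were tried. The scripts were tested on simulated data with the same preset spread for every gene, not estimated from these libraries. This checks the code and not the calls given here. With 1 library left out, the lone library was assumed to vary like the others.

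Pathway genes were named where called, at most 5 per list, comparison and direction in order of p, and the 5 genes most like Arg1 and Nos2 by rank. A gene of the latter ranking, a motif and a sequence comparison are not reported here. Members and lists were chosen with earlier results of these data known. Duplicate libraries of a group differed beyond sampling noise (mean chi-square 14.3 to 31.8) and were kept as 2.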

Additional observations from a re-analysis of the deposited data

Results flagged for a closer look

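The genotype effect differed between HDM and PBS for 3 genes of the pathway lists, by edgeR's test of that difference over all 8 libraries with Benjamini-Hochberg adjustment. The lists held 9, 18, 16 and 10 tested genes. Among all 15868 genes tested, 1.05% were called higher and 0.706% lower. The difference was 2.13 on the log2 scale for Sat1 (adjusted p = 0.00851), 1.06 for Dynll1 (adjusted p = 0.0298) and -1.28 for Pde3a (adjusted p = 0.0478). With an offset for gene length the values were 1.73, 0.86 and -0.92, and none passed the threshold. That of Sat1 was also lost without TP replicate 2 (2.00) and was 1.36, still past the threshold, without TH replicate 1, and those of Dynll1 and Pde3a without any one library of WP, WH or TP. The part of sex, which goes with HDM in these pools, cannot be told apart.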

How the results depend on the processing

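The count of called members, 1 between TP and WP, was 0 with a replicate block, alone (Nos2 at -3.65) or with the length offset (-3.58), and 0 to 1 with 1 library left out. Between TH and WH it was 1, but 2 without the filter, with DESeq2, with a replicate block, alone or with the length offset, or with all 8 libraries together, and 0 to 3 with 1 left out. Between WH and WP it was 2, or 3 without the filter, with DESeq2 or with the block, 4 with length offset and block (Slc7a1 added at 0.95), and 2 to 4 with 1 left out. Between TH and TP it was 5, or 6 with all 8 together, 4 with length offset and block, 3 with the length or GC offset, and 0 to 4 with 1 left out, 0 without either TP library. For the difference of effects it was 0, or 1 with DESeq2 or the length offset, with or without the block, and 0 to 1 with 1 left out. Over all genes, TP against WP gave 98 calls, 306 without the filter, 223 with DESeq2, 45 with the block and 75 to 432 with 1 left out. TH against WH gave 370, then 1055, 842 and 625 likewise, 771 with all 8, 164 with the length offset and 6 to 1595. WH against WP gave 1020, 1588 without the filter and 652 to 1661, TH against TP 2079 and 277 to 2676, and the difference of effects 279, 675 without the filter, 654 with DESeq2 and 138 to 721.

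Arg2 between TH and WH turned to -0.091 with the length offset and -0.077 with the block added, Slc7a1 between TH and TP to 0.23 and 0.27. The difference of effects of Asl turned to -0.000317 with the block, -0.00137 with the length offset, -0.13 with both and -0.018 with the GC offset, and that of Slc7a2 to -0.016 with the GC offset. With 1 library left out, signs changed for Slc7a1 between TP and WP (-0.51 to 0.10) and TH and TP (-0.31 to 0.28), Asl between TP and WP (-1.44 to 0.42) and WH and WP (-0.44 to 1.42), Nos3 between WH and WP (-0.48 to 0.046), and the differences of effects of Slc7a2 (-0.14 to 0.27) and Asl (-1.08 to 0.79). The cause was not tested.

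The share of calls that were higher moved from 42.9% to 53.8% with the length offset and 31.9% with all 8 between TP and WP, from 75.4% to 54.9% and 57.1% between TH and WH, from 61.2% to 50.4% with the length and 45.6% with the GC offset between TH and TP, and from 59.9% to 39.5% and 44.5% for the difference of effects. The GC offset moved the median of all genes between TH and TP by -0.116. Replicate numbers only name libraries (correlations of deviations 0.000298 to 0.0564). Nos1 was not tested.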
